A study of Mus musculus with 12 samples.

Results

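The genes described here are 8 transcription factors that set or hold the identity of photoreceptors: Nrl, Nr2e3, Crx, Otx2, Neurod1, Rorb, Thrb and Rxrg. They were chosen by name for their known roles, with earlier results of these data known, and they are 8 of the 24340 gene rows of the table. All 8 were above 0 in each library, so none was lost to a filter on low values. Both retinas of 6 p16-3MR mice aged 12 to 16 weeks were sequenced as 12 libraries in 4 groups of 3 retinas. In each mouse, control and GCV-treated alike, a transgene placed a fusion of Renilla luciferase, red fluorescent protein and herpes simplex thymidine kinase under the regulatory region of p16Ink4a. The anterior chamber of one eye was infused so that IOP stayed between 85 and 90 mm Hg over 60 min, and the untouched eye was the control. Mice 1, 2 and 5 then received ganciclovir (GCV, 25 mg/kg daily), which the kinase turns into a toxic product in cells that use the p16Ink4a promoter, and mice 3, 4 and 6 received PBS, with collection on day 3. Because the transgene was in every animal and the eyes of a mouse shared its injections, an effect of GCV in mice lacking the transgene was not analysed here.

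Photoreceptors form in steps. OTX2 directs progenitors toward the photoreceptor and bipolar fates, CRX then turns on genes shared by rods and cones, and RORB and NEUROD1 act with them. NRL, with its target NR2E3, drives rod genes and keeps cone genes silent, whereas in cones the thyroid hormone receptor THRB, with its partner RXRG, patterns the opsins. Most of these factors stay on in the adult retina, where rods are the most abundant neurons. In RNA from a whole retina, a loss of the cells that express a gene and a lower level per cell cannot be told apart.

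Several of the genes carry short binding motifs of the group's own members in the 250 bases before a RefSeq start. RefSeq promoters (GRCm38.p6) matched all 8 members with 14 windows, and 9 windows held at least 1 of 4 motifs searched on both strands, against 41.1% of 32851 promoter windows of all genes. The motifs were TAATCC, the core recognised by CRX and OTX2 (6.25% of all windows), TGCTGA, part of the NRL element (16.1%), AGGTCA, the nuclear receptor core (14%), and CAGATG, an E-box that NEUROD1 can bind (14.4%). A match is a description of letters and not a site in use. The windows of 30 bases below were chosen as examples that hold the motif of a member in the promoter of another or of itself, with the motif in capitals on the strand of the gene, 5′ to 3′.
Crx, chr7:15880032-15880061, minus strand, with the CRX and OTX2 core reversed: gtgggggtggtgGGATTAagcagacggtgc
Crx, chr7:15879959-15879988, minus strand, with the same core nearer the start: ccaccttccctgGGATTAcccttccagatc
Neurod1, chr2:79456669-79456698, minus strand, with the NRL letters reversed: ccccgcccgcgcTCAGCAtcagcaactcgg
Nrl, chr14:55524254-55524283, minus strand, with the NEUROD1 E-box: gctcgaggaccaCAGATGatctcagggaac
Rorb, chr19:19111256-19111285, minus strand, with the NRL letters: gattggccatggTGCTGAcaggaggcgggg
Thrb, chr14:17660764-17660793, plus strand, with the nuclear receptor core: aggagagttgacAGGTCAagggaatagggc
Rxrg, chr1:167618165-167618194, plus strand, with the nuclear receptor core: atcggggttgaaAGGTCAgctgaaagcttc
In Neurod1 the NRL letters stood at 50 bases before the start and again, in the adjoining 6 bases, at 44. Both of these and the Nrl match lay inside exons of the GENCODE annotation. The matches shown for Crx, Rorb, Thrb and Rxrg lay outside exons. Not shown are 3 matches in windows of Otx2, of the NRL letters, the CRX and OTX2 core and the E-box, and 1 of the CRX and OTX2 core in Thrb, which all lay inside exons. None of the 4 motifs was found in the Nr2e3 window.

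Values are given as FPKM, fragments per kilobase of transcript per library size, a unit that was inferred from the values since the table does not state it. Levels of different genes are set side by side on that reading. Estimated fragments per library were 6750000 to 9010000 in 11 libraries and 4010000 in the IOP-treated retina of mouse 6, which also had 14844 genes above 0 against 16044 to 16593 elsewhere. In mouse 6 the difference between the eyes followed GC content, the share of G and C bases in a transcript. The median log2 difference ran from 0.28 in the quintile of genes with the lowest GC content to -0.40 in the highest, whereas in the other 5 mice all medians lay between -0.06 and 0.11. Transcript length went with the difference in other mice as well. From the quintile of shortest to that of longest transcripts the median ran from 0.15 to -0.18 in mouse 2, from 0.14 to -0.19 in mouse 3, from 0.11 to -0.10 in mouse 5 and from 0.07 to -0.15 in mouse 6, and all medians of mice 1 and 4 lay between -0.02 and 0.0030. Of the members Rorb was in the longest quintile, Neurod1 in the fourth and the rest in the second or the third. By GC content Neurod1 and Rorb were in the lowest quintile, Otx2 in the second, Crx, Nr2e3 and Thrb in the third, and Nrl and Rxrg in the fourth. Where leaving this library out moved an estimated change of a member by more than 1.5 times, the value without it is given beside that estimate.

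**Figure D1:**
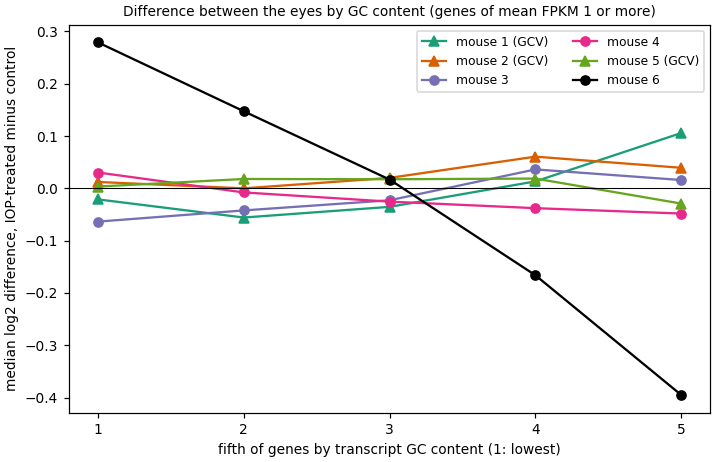
Median log2(FPKM + 1) difference, IOP-treated minus control eye, in each of 6 mice (y axis) over quintiles of genes ordered by transcript GC content (x axis, 1 lowest). Circles are mice without GCV and triangles mice with GCV. The line of mouse 6 falls from 0.28 to -0.40, and the lines of the other mice stay near 0.

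In the 6 control retinas the members spanned a wide range, and the rod factor was the most abundant. Nrl stood at 898 ± 87.5 FPKM (SD, n = 6) and was number 43 among all genes by mean level over 12 libraries. Crx followed at 629 ± 59.2, Nr2e3 at 399.6 ± 37.6, Neurod1 at 222 ± 21.3 and Otx2 at 103 ± 4.34 FPKM. The nuclear receptors Rorb at 27.5 ± 3.58, Thrb at 19.1 ± 1.80 and Rxrg at 6.49 ± 1.39 FPKM were the lowest. In this order no member's range over the 6 control retinas overlapped that of its neighbour. The coefficient of variation was 4.22% for Otx2, 21.5% for Rxrg and between 9.41% and 13.0% for the other members.

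All 8 members varied more between the IOP-treated retinas than between the controls, in part through mouse 6. Over the 6 IOP-treated retinas the coefficient of variation was 15.6% for Thrb, between 20.2% and 28.3% for Crx, Otx2, Nr2e3 and Nrl, 38.1% for Rorb, 52.5% for Rxrg and 60.6% for Neurod1. Over the 5 IOP-treated retinas other than that of mouse 6 it was 12.7% for Crx, 13.5% for Otx2, 13.7% for Neurod1, 19.5% for Nr2e3, 25.7% for Nrl, 31.4% for Rxrg and 31.9% for Rorb, and for Thrb 5.44%, under its value in controls. The order of the 4 most abundant members was no longer separate. Nrl ranged from 453 to 908, Crx from 470.3 to 831, Neurod1 from 274 to 998 and Nr2e3 from 236 to 476 FPKM. Below them Otx2 (88.5 to 156) and Rxrg (0.633 to 6.45) stayed apart from the rest, whereas Rorb (10.5 to 28.3) and Thrb (17.8 to 26.3) overlapped.

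**Figure D2:**
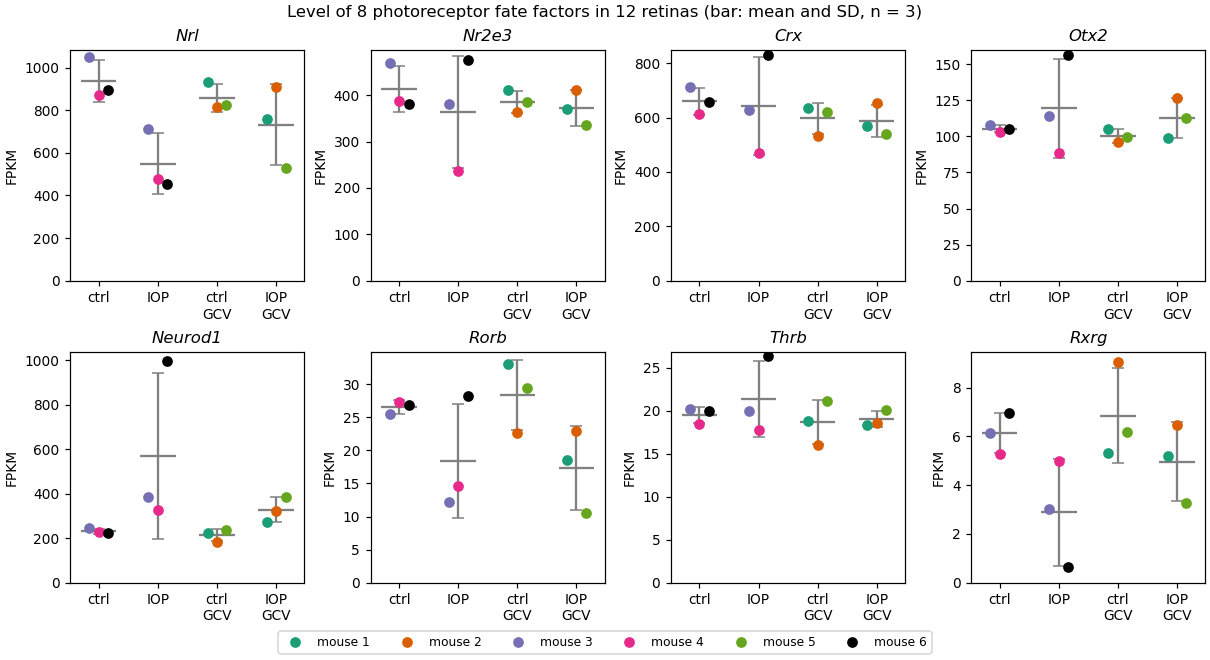
Level in FPKM (y axis, from 0) of each member in the 12 retinas, grouped as control (ctrl) and IOP-treated (IOP), without and with GCV. Points are single retinas coloured by mouse, and grey bars give the mean and SD of 3 retinas. Neurod1 is higher and Nrl lower in all 3 IOP-treated retinas without GCV than in their 3 controls.

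Neurod1, a basic helix-loop-helix factor needed for photoreceptor survival, was the member that rose. Without GCV it stood at 244, 227 and 221 FPKM in the control retinas of mice 3, 4 and 6, and at 383, 329 and 998 FPKM in their IOP-treated retinas. With GCV the control retinas of mice 1, 2 and 5 held 225, 182 and 235 FPKM and the IOP-treated ones 274, 324 and 385 FPKM. Each IOP-treated retina lay above each control retina, and the value of 998 in mouse 6 stood far above the rest. Within mice the rise was 1.22-fold, 1.78-fold, 1.57-fold, 1.45-fold, 1.64-fold and 4.51-fold in mice 1 to 6.

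Over the 6 eye pairs Neurod1 changed by 0.86 on the log2(FPKM + 1) scale (SE 0.24, 95% confidence interval 0.32 to 1.40), with an adjusted p of 0.0465 in limma. It was 1 of 8 members called in that comparison, which called 12.2% of the 18509 genes tested and 6.76% as higher. An exact two-sided sign-flip test of the 6 differences gave p = 0.03125, the smallest that 6 pairs allow, and 10.7% of all genes were higher in all 6 pairs. With the mouse as a block, the adjusted p was 0.0698 and no member was called. Without both retinas of mouse 6 the change was 0.60 with an adjusted p of 0.0344. The call was lost when any of 10 other libraries was left out (adjusted p between 0.0538 and 0.111), and it held when that of the IOP-treated eye of mouse 4 or of mouse 6 was. After each library was centred within quintiles of GC content, Neurod1 changed by 0.82, with an adjusted p of 0.0221, and of 0.0298 with the mouse as a block as well. The centred fits held 12346 genes, against 18509 in the main one, and the adjustment runs over the genes tested.

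In the separate comparisons Neurod1 was 1.12 higher without GCV (SE 0.35, adjusted p = 0.158) and 0.61 higher with GCV (SE 0.35, adjusted p = 0.378). These estimates were not called, although the groups did not overlap in either. None of the 8 members was called without GCV, where 1.65% of all genes were, and none with GCV, where 1.80% were. The groups did not overlap for 3 members without GCV, Neurod1 (higher), Nrl and Rxrg (both lower), against 20.5% of all genes (11.7% higher, 8.81% lower), and for Neurod1 with GCV, against 29.8% (14.5% higher). When the library of the IOP-treated eye of mouse 4 was left out, the change in mice lacking GCV was 1.42 for Neurod1 (adjusted p = 0.0257) and -1.47 for Rxrg (adjusted p = 0.0349), so that both were called. When instead that of mouse 6 was left out, the change without GCV was 0.62 for Neurod1 (adjusted p = 0.128), close to the 0.61 with GCV.

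**Figure D3:**
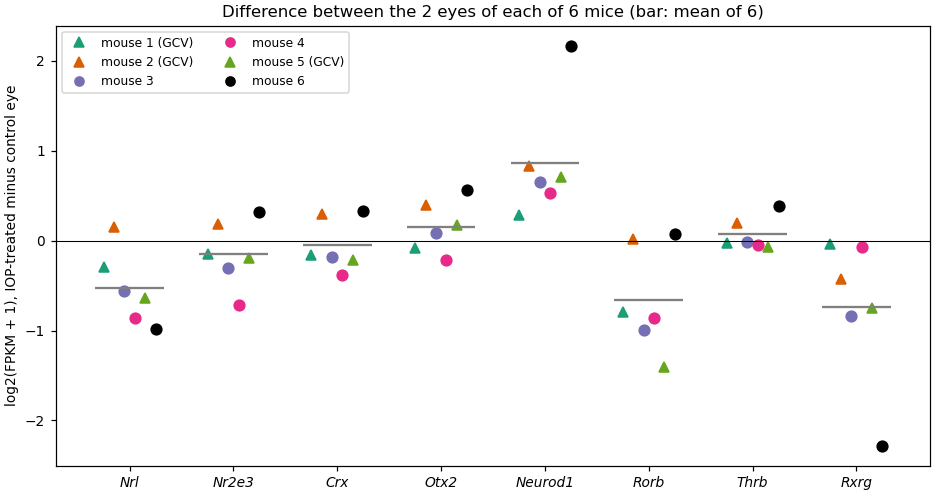
Difference between the eyes of each mouse in log2(FPKM + 1), IOP-treated minus control (y axis), for each member (x axis). Points are mice, triangles with GCV and circles without, and the grey bar is the mean of 6. Neurod1 is above 0 and Rxrg below 0 in all 6 mice, with mouse 6 farthest from the others at 2.17 and -2.28.

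Nrl, the leucine zipper factor that commits a precursor to the rod fate, was lower in 5 of 6 mice. In mice 3, 4 and 6 the control retinas held 1052, 870.1 and 896 FPKM, and the IOP-treated retinas 713, 479.7 and 453 FPKM. In mice 1, 2 and 5, which had GCV, the controls held 932, 813 and 823 FPKM and the IOP-treated retinas 761, 908 and 530.4 FPKM. The groups without GCV did not overlap, whereas those with GCV did, since Nrl was higher in the IOP-treated eye of mouse 2. The change was -0.80 without GCV (SE 0.25, adjusted p = 0.168) and -0.26 with GCV (SE 0.25, adjusted p = 0.652), the latter being -0.04 without the IOP-treated eye of mouse 5 and -0.43 without that of mouse 2. Over the 6 pairs it was -0.53 (SE 0.18, 95% confidence interval -0.93 to -0.13, adjusted p = 0.0776), which was not called, and the exact sign-flip p was 0.0625. It was called in 4 of 21 alternatives, over which the adjusted p ranged from 0.0292 to 0.170. These were only genes at 1 FPKM or more in at least 3 libraries (adjusted p = 0.0425), quantile normalization (0.0422), GC centring (0.0292) and GC centring with the mouse as a block.

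Nr2e3, an orphan nuclear receptor that is a target of NRL and represses cone genes in rods, moved less than Nrl. Its control retinas held 469.8, 388 and 381 FPKM and its IOP-treated retinas 381, 236 and 476 FPKM in mice 3, 4 and 6. With GCV the controls held 411, 363 and 385 FPKM and the IOP-treated retinas 371, 412 and 336 FPKM in mice 1, 2 and 5. The groups overlapped in both comparisons, and 4 of 6 mice were lower. The change over 6 pairs was -0.14 (SE 0.16, 95% confidence interval -0.50 to 0.22, adjusted p = 0.592). It was -0.0019 without the library of the IOP-treated eye of mouse 4 and -0.25 without that of mouse 6. The GENCODE exons of Nr2e3 overlap the noncoding gene Gm15507 on the same strand.

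The homeobox factors showed no change that passed the test. Crx, which activates phototransduction genes in both photoreceptor types, stood at 711, 613 and 658 FPKM in the controls of mice 3, 4 and 6 and at 627, 470.3 and 831 FPKM in their IOP-treated retinas. In mice 1, 2 and 5 the controls held 637, 531 and 623 FPKM and the IOP-treated retinas 569.9, 653 and 538 FPKM. The groups overlapped, and Crx was higher in 2 mice (2 and 6) and lower in 4. Over 6 pairs it changed by -0.05 (SE 0.15, 95% confidence interval -0.39 to 0.29, adjusted p = 0.852), and without the library of the IOP-treated eye of mouse 4 it was 0.05 and without that of mouse 6 -0.15.

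Otx2, which acts upstream of Crx, stood at 108, 103 and 105 FPKM in the controls of mice 3, 4 and 6 and at 114, 88.5 and 156 FPKM in their IOP-treated retinas. With GCV the values were 105, 96.0 and 99.6 FPKM in controls and 99.2, 126 and 113 FPKM after IOP elevation in mice 1, 2 and 5. Without GCV the IOP-treated values lay on both sides of the controls, and with GCV 2 of 3 lay above them and 1 among them. The change over 6 pairs was 0.15 (SE 0.12, 95% confidence interval -0.12 to 0.43, adjusted p = 0.451). It was 0.05 without the library of the IOP-treated eye of mouse 6 and 0.25 without that of mouse 4. Exons of Otx2 overlap the noncoding gene Otx2os1 on the opposite strand, which stood at 53.1 FPKM in the IOP-treated retina of mouse 6 and at 8.81 to 22.5 FPKM elsewhere. The library kit keeps the strand, but whether the counting used it is not given in the sources used here. Neurod1 exons likewise overlap Cerkl on the same strand and Gm26755 on the other.

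Rorb, an orphan nuclear receptor that acts upstream of Nrl and is also expressed by other retinal neurons, had 25.5, 27.4 and 26.9 FPKM in the controls of mice 3, 4 and 6 and 12.3, 14.7 and 28.3 FPKM in their IOP-treated retinas. In mice 1, 2 and 5 the controls held 33.1, 22.6 and 29.5 FPKM and the IOP-treated retinas 18.6, 23.0 and 10.5 FPKM. In 4 mice Rorb was between 0.356 and 0.562 times its level in the control eye, and in mice 2 and 6 it was 1.02 and 1.05 times that level. The change over 6 pairs was -0.66 (SE 0.22, adjusted p = 0.0771, exact sign-flip p = 0.125), which was not called. With the library of the IOP-treated eye of mouse 6 left out it was -0.83, with an adjusted p of 0.0252, and it was -0.71 after GC centring, with an adjusted p of 0.0366. Rorb was called in both, and also after GC centring with the mouse as a block. The median of the longest transcripts, to which Rorb belongs, was -0.01 and -0.02 in mice 1 and 4 and -0.19 and -0.10 in mice 3 and 5, the 4 mice in which Rorb was lower, and the part of length in the change was not tested.

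Thrb, the thyroid hormone receptor whose beta-2 form is needed for the medium-wavelength opsin, showed no change that passed the test. Values were 20.2, 18.4 and 19.9 FPKM in the controls of mice 3, 4 and 6 and 20.0, 17.8 and 26.3 FPKM after IOP elevation. In mice 1, 2 and 5 they were 18.8, 16.0 and 21.2 FPKM in controls and 18.4, 18.5 and 20.1 FPKM after IOP elevation. The row is a gene total, so the receptor's forms were not separated. The change over 6 pairs was 0.07 (SE 0.10, 95% confidence interval -0.15 to 0.29, adjusted p = 0.681). It was 0.13 without the library of the IOP-treated eye of mouse 4, and its sign turned without that of mouse 6 (-0.0074) and without both retinas of mouse 6 (-0.0002).

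Rxrg, a retinoid X receptor of cones that pairs with THRB and represses the short-wavelength opsin, was lower in the IOP-treated eye of all 6 mice. The controls of mice 3, 4 and 6 held 6.14, 5.29 and 6.94 FPKM, and the IOP-treated retinas 3.01, 5.0 and 0.633 FPKM. In mice 1, 2 and 5 the controls held 5.33, 9.04 and 6.17 FPKM and the IOP-treated retinas 5.18, 6.45 and 3.26 FPKM. In mice 1 and 4 the eyes differed by less than 6%, with ratios of 0.971 and 0.944, and the value of 0.633 in mouse 6 rested on about 4.23 estimated fragments. Rxrg changed by -1.06 without GCV (SE 0.42, adjusted p = 0.225) and by -0.41 with GCV (SE 0.42, adjusted p = 0.664). Over 6 pairs the change was -0.73 (SE 0.29, adjusted p = 0.123), not called, and the exact sign-flip p was 0.03125. Without the library of the IOP-treated eye of mouse 6 the change without GCV was -0.53 (adjusted p = 0.424) and that over 6 pairs -0.47 (adjusted p = 0.136). Without that of mouse 5 or the control library of mouse 2 the change with GCV was -0.18 or -0.21. Lower in all 6 pairs were 10.1% of all genes. Without both retinas of mouse 6 the change was -0.43 (adjusted p = 0.235), and with the library of the IOP-treated eye of mouse 4 left out it was -0.94 (adjusted p = 0.026), which was called.

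**Figure D4:**
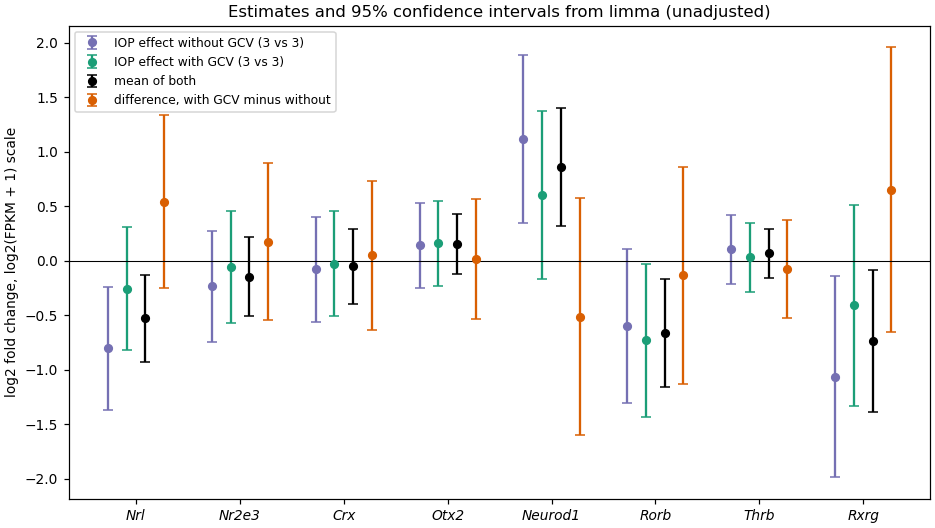
Change in log2(FPKM + 1) of each member (x axis) estimated by limma, with unadjusted 95% confidence intervals as bars. Colours give the IOP effect without GCV, with GCV, their mean over the 6 eye pairs, and the difference between them (with minus without). Over 6 pairs Neurod1 was estimated at 0.86, the one member called, and each interval of the difference crosses 0.

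Whether GCV altered the response to IOP elevation was asked with the interaction, the effect of IOP with GCV minus the effect without. No member was called, nor was any other of the 18509 genes by limma (0.00%), of which 358 had an unadjusted p under 0.05. The largest estimates were 0.66 for Rxrg (95% confidence interval -0.65 to 1.96), 0.54 for Nrl (-0.25 to 1.34) and -0.51 for Neurod1 (-1.60 to 0.57), with adjusted p of 0.997 for each. These intervals are wide, so a difference of the size of the IOP effect itself was not resolved. With the library of the IOP-treated eye of mouse 6 left out, the difference was -0.0149 for Neurod1 and 0.13 for Rxrg, and 0.42 for Nrl. With that of mouse 4 left out it was -0.81 for Neurod1 and 1.06 for Rxrg.

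Between mice, GCV was compared with PBS within each kind of eye, so the block on the mouse could not be used. No member was called among IOP-treated retinas or among control retinas, and no gene was in either (0.00% each; 774 and 295 genes at an unadjusted p under 0.05). In IOP-treated retinas the largest estimates were 0.77 for Rxrg (SE 0.42, adjusted p = 0.819), -0.62 for Neurod1 (SE 0.35, adjusted p = 0.819) and 0.41 for Nrl (SE 0.25, adjusted p = 0.819). With the library of the IOP-treated eye of mouse 6 left out, they were 0.24 for Rxrg and -0.13 for Neurod1, and over all libraries left out in turn they ran from 0.24 to 1.18 for Rxrg, from -0.93 to -0.13 for Neurod1 and from 0.24 to 0.63 for Nrl. In control retinas the estimates of the 8 members lay between -0.15 (Crx) and 0.12 (Rxrg). With 1 library left out, Crx ran from -0.20 to -0.0664 there and Rxrg from -0.0737 to 0.26. The IOP-treated retinas with and without GCV overlapped for all 8 members, against 4.75% of all genes that did not overlap.

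Ratios within a library set the factors against each other, with the reservation that Neurod1, Otx2 and Rorb are also expressed by retinal neurons other than photoreceptors. Values of a whole retina do not tell which cells express any member, Crx included. The ratio of Nrl to Neurod1 was 3.50 to 4.46 in the 6 control retinas and 0.454 to 2.80 in the 6 IOP-treated retinas. These ranges did not overlap. Neurod1 to Crx was 0.336 to 0.378 in controls and 0.481 to 1.2 after IOP elevation, again without overlap. Nrl to Crx went from 1.32 to 1.53 in controls to 0.545 to 1.39, Nrl to Nr2e3 from 2.14 to 2.35 to 0.951 to 2.20, and Otx2 to Crx from 0.152 to 0.181 to 0.174 to 0.209, all with some overlap. In all 6 mice the IOP-treated eye had the lower value of the 3 ratios of Nrl and the higher value of both other ratios. The outermost values of 4 of the ratios came from the IOP-treated eye of mouse 6. Over the other 5 mice the lowest Nrl to Neurod1 was 1.38, the highest Neurod1 to Crx 0.716, the lowest Nrl to Crx 0.986 and the lowest Nrl to Nr2e3 1.58, and the first 2 of these still did not overlap the controls. The ratios were chosen after the values had been seen and were not tested.

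**Figure D5:**
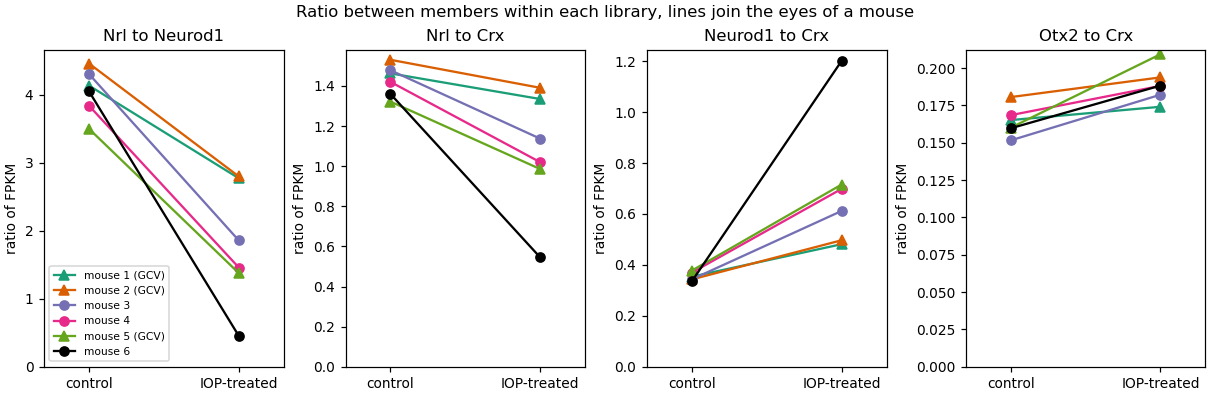
Ratio of FPKM between 2 members within a library (y axis, from 0) in control and IOP-treated retinas (x axis), with a line joining the eyes of each mouse and triangles for mice with GCV. Nrl to Neurod1 falls from 3.50 to 4.46 in controls to 0.454 to 2.80, and Neurod1 to Crx rises from 0.336 to 0.378 to 0.481 to 1.2, where 0.454 and 1.2 are mouse 6 and the next values are 1.38 and 0.716.

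Genes downstream of the factors were described over the 6 pairs, against a median of 0.0089 over all genes tested, of which 6.76% were called higher and 5.44% lower. Of 26 rod genes 1 was called higher, none lower, and the median was -0.22. Impg2, a matrix protein around photoreceptors, rose by 1.00 (SE 0.18, adjusted p = 0.00827), from 86.6 to 127 FPKM in controls to 157 to 307 FPKM. The rod transducin Gnat1 (-0.25, adjusted p = 0.897) and phosducin, Pdc (-0.22, adjusted p = 0.85), were not called. The summed level of the rod genes was 79419 to 98758 FPKM in controls and 54008 to 92818 after IOP elevation without GCV, and 69989 to 87719 and 54668 to 85627 with GCV.

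Of 10 cone genes 1 was called higher and 1 lower, with a median of -0.22. Gnb3, a G protein subunit shared with bipolar cells, rose by 1.27 (SE 0.16, adjusted p = 0.00149), from 215 to 283 FPKM in controls to 428 to 843 FPKM. Arr3, cone arrestin, fell by 1.28 on the log2 scale (SE 0.23, adjusted p = 0.00911), from 93.8 to 151 FPKM to 28.6 to 87.0 FPKM. Pde6h (-0.15, adjusted p = 0.53) and Gngt2 (0.02, adjusted p = 0.972), parts of the cone cascade, were not called. The opsins that THRB and RXRG pattern were looked up after other values had been seen, and neither was called: Opn1mw was at -0.56 (SE 0.23, adjusted p = 0.125) and Opn1sw at -0.29 (SE 0.25, adjusted p = 0.486).

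Other regulators of photoreceptor development were called lower in 3 of 24 measured genes, 25 being listed, and none was called higher (median -0.20). Among these were Pax6, which is on in amacrine and ganglion cells of the adult retina (-0.68, adjusted p = 0.0361) and Nr1d1, a clock receptor that works with NR2E3 (-0.53, adjusted p = 0.0463). The most abundant of the list, Samd11 (0.01), Mef2d (0.31) and Esrrb (-0.54), were not called. Among 17 relatives of the members 2 were called lower, Thra, the other thyroid hormone receptor (-0.54, adjusted p = 0.045), and Mafa, of the family of Nrl (-0.62, adjusted p = 0.0142), which was under 1.12 FPKM throughout the controls. Neurod4 (-0.46) and Rora (-0.19) were not called.

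Genes that handle the ligands of these receptors were called higher in 3 of 17 and lower in 1 (median 0.07). Aldh1a1, which makes retinoic acid, was among the former and rose by 0.96 (adjusted p = 0.0263). Crabp1, which binds retinoic acid, fell by 1.17 (log2; adjusted p = 0.0243), and the corepressor Ncor1 (-0.18) was not called.

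Markers of ganglion cells, reactive glia, microglia and leukocytes held most of the calls among lists of other cells. All 12 ganglion cell genes were lower and 11 were called, with a median of -1.32, and their sum was 952 to 1224 FPKM in controls and 229 to 1051 after IOP elevation without GCV, and 1191 to 1961 (controls) and 349.8 to 769.9 with GCV. The ganglion cell sum of mouse 4 was nearly the same in both eyes, 1095 FPKM (control) and 1051. It went from 952 to 229 in mouse 3 and from 1224 to 442 in mouse 6. Reactive glia genes of mouse 4 did rise, from a sum of 153 to 931 FPKM. Amacrine genes were called lower in 5 of 10 (sums of 175 to 216 and 62.2 to 173 FPKM without GCV, 205 to 252 and 54.7 to 135 with), bipolar genes in 1 of 13 with all 13 lower (641 to 853 and 403 to 654, 762 to 854 and 282 to 709), horizontal genes in 1 of 5 (32.2 to 42.3 and 10.5 to 37.2, 40.1 to 43.5 and 15.5 to 37.1), and Mueller glia genes in 2 of 8 (1345 to 1499 and 677 to 948, 1643 to 1749 and 559.6 to 1204). Called higher were 8 of 8 genes of reactive glia (153 to 296 and 796 to 931, 179 to 209 and 833 to 2059 FPKM), 8 of 10 of microglia (70.2 to 113 and 290.0 to 472, 83.2 to 94.6 and 274 to 562) and 6 of 9 of infiltrating leukocytes (8.61 to 45.6 and 318 to 735, 11.5 to 36.4 and 162 to 2487). Lens genes were called higher in 5 of 11 (69.7 to 135 and 302 to 6018, 156 to 9322 and 3989 to 7801), endothelium genes in 1 of 7 (27.2 to 35.3 and 19.8 to 56.7, 28.0 to 39.2 and 31.9 to 37.8) and genes of the retinal pigment epithelium in 0 of 12, with none at an unadjusted p under 0.05 either (86.8 to 386 and 66.3 to 399, 25.8 to 322 and 74.1 to 108). At 0 in a whole group were Cd3e and Ly6c2 in control retinas with GCV and Dio1, of the ligand list, in the same group. The part of these cells in the values of the 8 factors was not tested.

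The genes whose levels ran most like each member over the 12 libraries were sought in 12907 genes whose mean reached 1 FPKM and whose symbol stands once in the table, by Pearson's r of log2(FPKM + 1). The libraries share the IOP contrast, depth and GC differences, so r is a description. Nrl ran with the rod genes Pde6g (0.976) and Prph2 (0.972), and Crx with Lrrc57 (0.971) and Fabp12 (0.966). Neurod1 ran with Eed (0.986) and Srp19 (0.985), Otx2 with Sec14l2 (0.985) and Cdc123 (0.958), and Nr2e3 with Fam3a (0.943) and Hprt (0.937). Rorb ran with Cep120 (0.966) and Zswim5 (0.965), Thrb with Tchp (0.966) and Elmod2 (0.956), and Rxrg with 9530082P21Rik (0.993) and Cnih2 (0.980).

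Leaving out the library of the IOP-treated eye of mouse 6 changed the leading partner of 4 members. Over the remaining 11 libraries the most alike genes were Lrrc57 for Crx (0.967), Sec14l2 for Otx2 (0.970), Tchp for Thrb (0.907) and 9530082P21Rik for Rxrg (0.978), which had led before as well. The lead passed to Kcnj14 for Nrl (0.975), Tm2d2 for Nr2e3 (0.967), Rufy3 for Rorb (0.985) and Eif1a for Neurod1 (0.992). Second in line for Rorb came Arr3 (0.978), the cone arrestin that fell after IOP elevation, and for Neurod1 came Mak (0.984), a kinase of photoreceptor cilia.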

How the data were processed

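Strand-specific libraries of polyadenylated RNA were read as paired ends. Per the authors' methods, reads on exons of RefSeq genes were counted with HOMER, and the submitters' processing notes name TopHat2, Bowtie2, Cufflinks, Cuffdiff and mm10. The deposited table holds FPKM values. The unit is not stated with it and was inferred from the values, which are not whole and whose low values fall on steps that scale with transcript length. How the values were scaled is not given in the sources used here. Values under 1 FPKM rest on few fragments. Depth was estimated from steps in the low values of single-transcript genes (77.4% to 82.1% of them within 0.15 of a whole number), which was decided on with the values in view.

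Of 24340 rows, 5831 were at 0 in all libraries, and 18509 were tested with limma 3.58.1 (R 4.3.3) on log2(FPKM + 1), a scale that understates the change of low genes, fitting 1 mean for each of 4 groups with a trended prior, and called under 0.05 after Benjamini-Hochberg adjustment, two-sided. A count test had been named for the case that the table held counts and was not used. The members, gene lists and tests were chosen with earlier results of these data known. The rule named the 8 members, the 3 most abundant genes of each list and up to 4 called over the 6 pairs, and for each member the 2 genes of highest r. Lists of other cell types are given by counts and summed levels, and their single genes, which the rule also names, are left out, as are some genes not reported here.

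Labels give both eyes of a mouse the same number, so they are pairs of 1 animal. Deviations from the group means of the eyes correlated at -0.117, 0.132, 0.207, 0.388, 0.166 and 0.1 in mice 1 to 6. In the limma fit of group means, also over the 6 eye pairs, p rests on the spread between animals and leaves the pairing out. The sign-flip p and the fit with the mouse as a block rest on the spread of the differences within mice.

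Alternatives were a pseudocount of 0.1, a filter at 1 FPKM, the mouse as a block, only the groups compared, median-ratio scaling, quantile normalization, no trend, mouse 6 or each library left out, and sign-flip tests. Centring within quintiles of GC content (12346 of 12910 gene rows with a mean of 1 FPKM or more had a GENCODE transcript, 95.6%) was added after seeing the data. Only those 12346 genes were tested after it. Calling was run on simulated data with independent noise for each gene. That simulation held no pairing, GC trend or difference in depth, so it cannot tell how calling behaves under these. Figures were drawn with matplotlib 3.10.9, and tables read with pandas 2.3.3 and numpy 2.4.6 under Python 3.11.15.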

Additional observations from a re-analysis of the deposited data

Results flagged for a closer look

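In the 6 differences between the eyes of a mouse, mouse 6 stood apart from the other 5 for Neurod1 and for Rxrg, by the gap to its neighbour as a share of the whole range (above Dixon's 95% critical value for 6 values; chance passes this limit in about 1 of 20 groups, and 8 members were looked at). For Neurod1 the difference was 2.17 against 0.28 to 0.83 in the other mice. For Rxrg it was -2.28 against -0.83 to -0.04, with the IOP-treated value at 0.633 FPKM. The IOP-treated library of mouse 6 had the lowest estimated depth, 4010000 fragments, and the steepest trend with GC content. Against the median of genes in the same quintile of GC content the differences of mouse 6 were 1.89 for Neurod1 and -2.11 for Rxrg. The part of depth and GC content in these values was not tested further.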

How the results depend on the processing

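The changes of the members and the counts of genes and members called were recomputed under each alternative that could be fitted. Variation, ratios and likeness were recomputed only with the IOP library of mouse 6 left out, and single genes of the lists were not. GC quintile centring was chosen after seeing the data. Over the 6 pairs, members called went from 1 to 2 with only genes at 1 FPKM or more in at least 3 libraries and after quantile normalization, to 3 after GC quintile centring with or without the replicate block, to 0 with the block alone, and to between 0 and 2 with 1 library left out. With the block the adjusted p of Neurod1 was 0.0698, and no other call of a member changed. Genes called there went from 2258 to 1351 with the block, 948 without mouse 6, and 830 to 4515 with 1 library left out. The balance moved too, from 1252 higher and 1006 lower to 1241 and 1719 after quantile normalization and to 765 and 183 without mouse 6. Without GCV, genes called went from 306 to 464 with a pseudocount of 0.1, 75 with the block, 65 without mouse 6, and 23 to 2490 with 1 library left out, where members called reached 2. With GCV they went from 334 to 535 with the pseudocount, 92 with only the groups compared, 144 with the block, and 77 to 716 with 1 library left out. With 1 library left out, genes called for the interaction went from 0 to at most 2, for GCV in IOP-treated retinas to at most 4 and in control retinas to at most 3; the last was 1 with the pseudocount or only the groups compared and 2 without mouse 6.

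Some signs turned. Without mouse 6 the change of Thrb over 6 pairs was -0.0002 and the interaction of Neurod1, -0.51 with all libraries, was 0.0148. With 1 library left out, Crx over 6 pairs lay between -0.15 and 0.0522, Thrb between -0.0074 and 0.13, and Rxrg for GCV in control retinas between -0.0737 and 0.26. The cause of these shifts was not tested. In mouse 6, Rxrg rested on about 4.23 estimated fragments in the IOP-treated retina and 99.2 in the control, and the part of depth was not tested.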
